A study of Homo sapiens with 4 samples.

Results

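Versican, the link proteins that fix it to hyaluronan, and the enzymes and receptors that make, bind and break hyaluronan were followed in UM-UC-3 cells, an established line from a human bladder cancer, on 4 arrays. The set was given as 10 gene symbols (VCAN, HAPLN1, HAPLN3, HAS1, HAS2, HAS3, CD44, HMMR, CEMIP and HYAL2), and its members were every probe set, high or low, that the platform annotation assigned to exactly 1 of them. Of the 19775 genes named that way, 9 belonged to the set, with 32 probe sets of 41091. HAS1 had no single-gene probe set in the annotation used, so it has no value here. A further probe set, annotated to HAS3 together with UTP4, was left out.

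The control cells carried GFP alone and the experimental cells GFP fused to RhoGDI2, the protein encoded by ARHGDIB. Control cells were cotransfected with GFP and the puromycin selection plasmid pBABE PURO, and both lines are stable transfectants sorted for their fluorescent protein. Each group had 2 arrays, 1 from each of the preparations A and B, which the labels pair across the groups. Total RNA was taken in log phase growth, and 6 µg were labelled per array. The promoter that drives the transgenes, and whether A and B go back to separate transfections, were not given in the labels, so differences that arose when the lines were made cannot be told apart from those due to RhoGDI2. The study's purpose, from its title, was to find genes that RhoGDI2 regulates.

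Hyaluronan is a long unbranched sugar chain that hyaluronan synthases spin out through the plasma membrane. Versican, a large chondroitin sulfate proteoglycan of the lectican family, binds that chain through its amino-terminal domain, and a link protein such as HAPLN1 locks the complex. Cells sense the chain through CD44 and HMMR (also called RHAMM), and hyaluronidases and CEMIP cut it. Versican-rich matrix is known in tumours for loosening cell adhesion and for drawing in inflammatory cells.

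Values are log2 RMA expression, so a difference of 1 is 2-fold, and each is GFP-RhoGDI2 minus GFP. The filter level named below is 4.64, the median of the probe set means; a probe set with a mean under it was not tested, and a group mean under it is not shown to be above background. A call is an adjusted p under 0.05 from limma with preparation as a block (Benjamini-Hochberg over all 27307 probe sets tested). ARHGDIB itself was 41.3-fold higher in the GFP-RhoGDI2 line at its brightest probe set and 1.92-fold higher at another, both called, while the remaining one differed by -0.02 and was not called. Arrays of the same group correlated at 0.996 and arrays of different groups at 0.991 to 0.992 across probe sets. Of 15 urothelial and epithelial marker genes measured, 5 reached the filter level in each group. Of the 4 that were tested, 2 were called by limma, both lower, beside 3.35% of all genes tested. KRT18 fell from 13.60 in GFP cells to 13.01 in GFP-RhoGDI2 cells (adjusted p = 0.0225), a call lost in 4 of 12 alternatives. KRT8 fell from 9.69 to 8.45 (adjusted p = 0.00278). UPK1A, a uroplakin, read 4.10 in GFP and 4.75 in GFP-RhoGDI2 cells, with a mean under the filter level (adjusted p = 0.0388 in the fit with no filter). The uroplakin genes UPK1B, UPK2 and UPK3A and the epithelial genes EPCAM and CDH1 were under the filter level in both groups. The summed log2 levels of these 15 genes were 74.4 and 75.7 on the GFP arrays and 73.4 and 72.4 on the GFP-RhoGDI2 arrays, and their part in the results below was not tested. Of 9 fibroblast markers, 2 (COL1A1 and THY1) reached the filter level, and none was called; their summed levels were 43.6 and 40.8 in GFP and 41.9 and 41.4 in GFP-RhoGDI2 cells. Of the macrophage, the lymphoid and blood, and the endothelial markers, 1 gene each was tested; 0 were called by limma and 0 had an unadjusted p under 0.05.

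At the brightest probe set of each gene, 8 of the 9 genes were tested and 4 were called, HAS2 and HAS3 higher and VCAN and HAPLN1 lower; 8.17% of all 12123 genes tested were called. Over probe sets, 25 of 32 were tested and 9 called, against 7.64% of all tested; 3 were higher and 6 lower, against 4.63% and 3.01%. The genes were listed with earlier results of these arrays known, so these counts describe the set and do not support it. The VCAN, HAPLN1 and HAS2 calls were large and HAS3 was not.

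**Figure D1:**
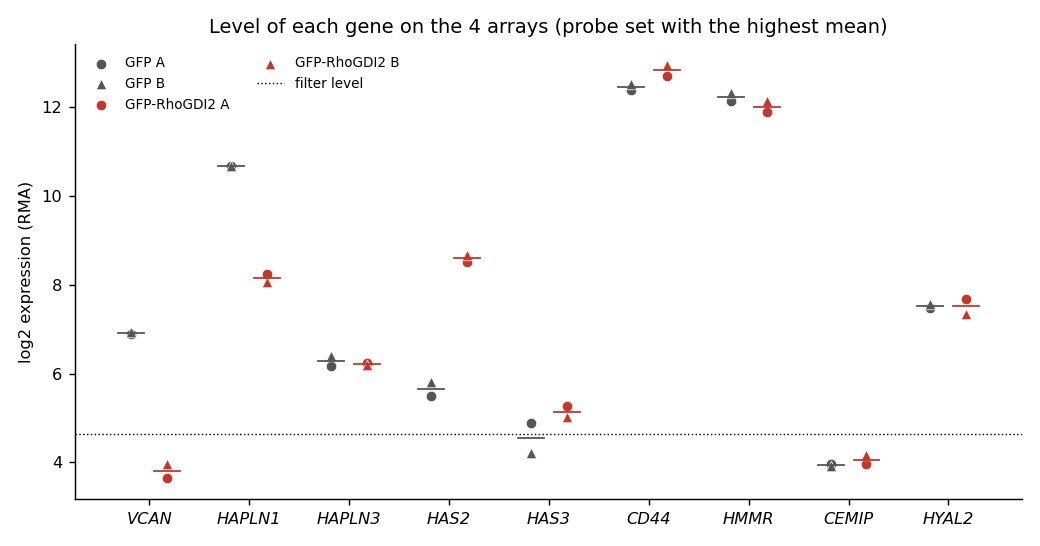
Log2 expression (vertical axis) of each measured gene at its brightest probe set on every array. Circles are preparation A and triangles preparation B, grey for GFP and red for GFP-RhoGDI2; short bars are group means of 2 arrays and the dotted line is the filter level of 4.64. VCAN and HAPLN1 sit lower and HAS2 higher on both GFP-RhoGDI2 arrays, and CEMIP lies under the filter level on all 4.

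VCAN fell from clear expression to under the filter level. Its brightest probe set (204620_s_at) read 6.89 (A) and 6.93 (B) in GFP cells, against 3.64 (A) and 3.96 (B) in GFP-RhoGDI2 cells; arrays are given in that order throughout. Both GFP-RhoGDI2 arrays were far under both GFP arrays, with no overlap; groups did not overlap at 52.1% of all tested probe sets, so that alone is common on these arrays. The log2 difference was -3.11 (SE 0.107, 95% interval -3.38 to -2.85, limma adjusted p = 0.000214), -3.24 in preparation A and -2.98 in preparation B. Since the lower level may be background, the size is uncertain: with all values under 4.63 raised to that level, the difference was -2.28 (adjusted p = 0.000269). These are bulk RNA values, in which fewer expressing cells and less RNA per cell cannot be told apart. Another probe set above the filter (221731_x_at) went from 6.70 and 7.02 to 3.73 and 3.81, a difference of -3.09 (adjusted p = 0.000200).

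The other 3 VCAN probe sets had means under the filter level and were not tested there. All 3 were lower on both GFP-RhoGDI2 arrays than on either GFP array, as were 20.6% of all probe sets not tested. The set 211571_s_at read 5.55 and 5.94 in GFP and 3.27 and 3.64 in GFP-RhoGDI2 cells, a difference of -2.29. The set 215646_s_at read 5.002 and 5.67 against 3.32 and 3.19, a difference of -2.08. The dimmest, 204619_s_at, read 3.93 and 4.45 against 3.35 and 2.99, a difference of -1.02. In the fit with no filter all 5 VCAN sets were called, with adjusted p from 5.06e-05 to 0.0473, where 2.64% of all probe sets were called. The differences thus shrank with the level of the probe set in GFP cells, while every GFP-RhoGDI2 mean lay between 3.17 and 3.80. Which of the versican splice forms each set reads was not analysed here, and sets of 1 gene are not replicates.

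HAPLN1, whose product clamps versican to hyaluronan, fell as well. The brightest set (205524_s_at) read 10.67 and 10.69 in GFP cells and 8.25 and 8.07 in GFP-RhoGDI2 cells, a difference of -2.52 (SE 0.101, 95% interval -2.77 to -2.27, adjusted p = 0.000328) or 5.72-fold. Here the lower group stayed well over the filter level, so the fall is measured on both sides. All 4 HAPLN1 sets were called lower. The set 205523_at went from 10.23 and 10.22 to 7.66 and 7.26 (difference -2.77), and 230204_at from 9.85 and 9.75 to 6.85 and 6.55 (difference -3.10). The set 230895_at went from 8.18 and 8.31 to 5.06 and 5.65 (difference -2.89). The adjusted p of the 4 sets ran from 0.000193 to 0.000458 by limma. The groups did not overlap at any of them, against 52.1% of all tested probe sets without overlap. The sets therefore placed the fall between 5.72-fold and 8.58-fold.

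VCAN and HAPLN1 are next to each other in the RefSeq order of protein-coding genes on chromosome 5, on opposite strands. Each of the other lecticans is likewise next to a link protein gene: ACAN to HAPLN3, BCAN to HAPLN2 and NCAN to HAPLN4. The 250 bases before the RefSeq start (build GRCh38.p14) are shown for VCAN and HAPLN1, which fell together, and for HAPLN3, which was not called. VCAN lies at chr5:83471494-83471743 on the plus strand, HAPLN1 at chr5:83720856-83721105 on the minus strand and HAPLN3 at chr15:88895545-88895794 on the minus strand. Capitals mark matches on either strand to the motifs searched, which were the TATA box TATAAA, the AP-1 site TGANTCA, the E-box CACGTG, the Sp1 site GGGCGG, the shorter ACGTG that lies within that E-box, CTTTGA and also CTTTGT for TCF factors, and an NF-kappaB consensus.
VCAN: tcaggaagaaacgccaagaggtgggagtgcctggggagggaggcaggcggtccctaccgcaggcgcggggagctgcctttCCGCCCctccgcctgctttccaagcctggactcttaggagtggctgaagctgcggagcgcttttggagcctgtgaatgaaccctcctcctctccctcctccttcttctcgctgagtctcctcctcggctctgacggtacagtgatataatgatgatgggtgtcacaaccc
HAPLN1: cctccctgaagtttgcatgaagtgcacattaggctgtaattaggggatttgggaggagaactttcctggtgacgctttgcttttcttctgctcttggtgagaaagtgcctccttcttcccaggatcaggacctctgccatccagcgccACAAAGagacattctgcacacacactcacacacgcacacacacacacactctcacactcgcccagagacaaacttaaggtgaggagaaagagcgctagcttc
HAPLN3: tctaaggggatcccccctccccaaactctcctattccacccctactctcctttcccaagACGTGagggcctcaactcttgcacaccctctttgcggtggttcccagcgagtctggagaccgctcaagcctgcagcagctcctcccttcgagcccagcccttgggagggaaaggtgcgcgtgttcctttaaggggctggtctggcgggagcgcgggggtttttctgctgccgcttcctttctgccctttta
In these letters VCAN had 1 match, to GGGCGG on the reverse strand 170 bases before the start, a motif in 42.6% of the 35116 promoter windows of the table. HAPLN1 had 1 match, to CTTTGT on the reverse strand 102 bases before the start, a motif in 13.7% of windows. HAPLN3 had 1 match, to ACGTG 191 bases before the start, found in 18.5% of windows. None of the 8 motifs was in both the VCAN and the HAPLN1 window. G and C made up 60.8% of the VCAN window, 50.8% of the HAPLN1 window and 60.4% of the HAPLN3 window. A match is a description of the letters and not a binding site.

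Around the VCAN and HAPLN1 pair, the differences of the neighbouring genes were mostly small. Of the 5 protein-coding genes on each side, 9 had a probe set and were tested, and their median difference was -0.00. SSBP2 was called higher and none was called lower, beside 4.83% and 3.35% of all genes tested. XRCC4, a DNA repair gene directly before VCAN, read 8.58 in GFP and 8.46 in GFP-RhoGDI2 cells, a difference of -0.12 (adjusted p = 0.464). EDIL3, directly after HAPLN1, encodes a secreted integrin-binding protein. It read 9.50 in GFP and 8.86 in GFP-RhoGDI2 cells, a difference of -0.64 that missed the threshold (adjusted p = 0.0659). That difference was -0.93 in preparation A and -0.34 in B. With all 4 arrays kept, limma called EDIL3 lower with an intensity trend (adjusted p = 0.000212). It was also called lower with the filter at the upper quartile (limma adjusted p = 0.0154). Those settings called 5721 of 27307 and 3435 of 13654 of all probe sets. With 1 array left out, the EDIL3 difference ran from -0.92 (without GFP-RhoGDI2 B) to -0.36 (without GFP-RhoGDI2 A). The mean over the EDIL3 probe sets differed by -0.11. SSBP2, the 5th gene before VCAN, rose by 1.33 (adjusted p = 0.00979) from a GFP mean of 4.21, under the filter level. TMEM167A, ATG10, RPS23, COX7C, CCNH and TMEM161B differed by -0.03, 0.19, -0.03, 0.05, 0.08 and -0.00.

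**Figure D2:**
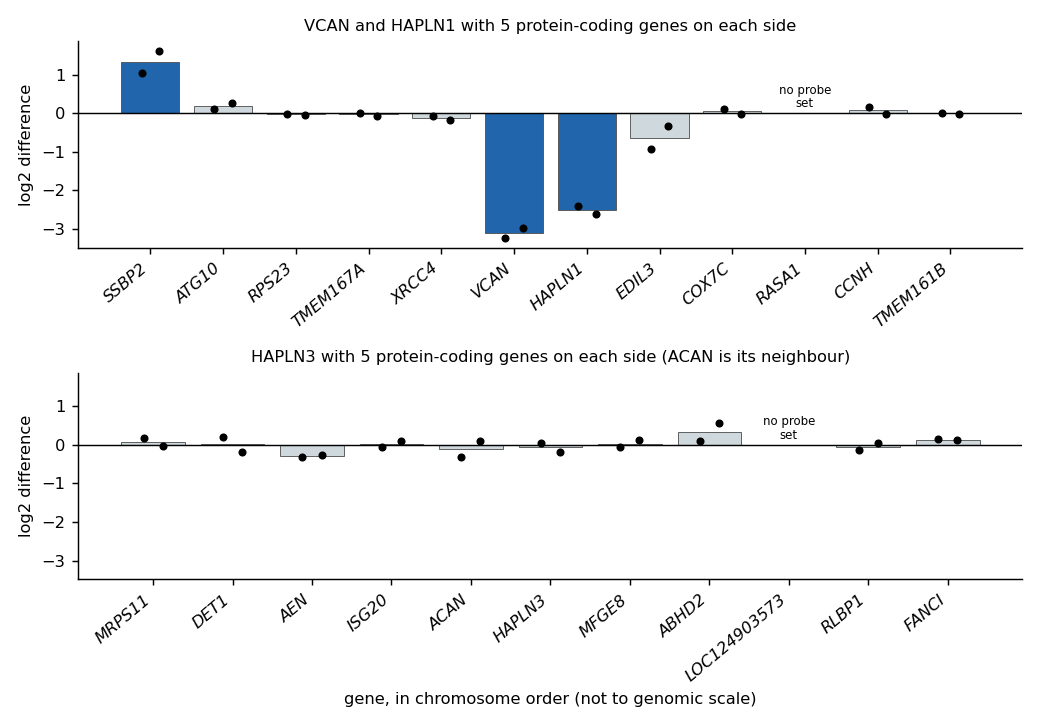
Log2 difference, GFP-RhoGDI2 minus GFP (vertical axis), of VCAN and HAPLN1 with their neighbours (top) and of HAPLN3 with its neighbours, ACAN among them (bottom), in chromosome order and not to genomic scale. Bars are the fitted difference, dark blue where called, and dots are preparations A (left) and B (right). VCAN and HAPLN1 differed by -3.11 and -2.52, and their tested neighbours except SSBP2 and EDIL3 by 0.19 or less in size (top). No gene of the HAPLN3 group was called, with neighbours at -0.29 to 0.33 (bottom).

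Of the other link protein and lectican genes, those that were tested were not called. HAPLN3, a widely expressed link protein, read 6.18 and 6.40 in GFP and 6.23 and 6.21 in GFP-RhoGDI2 cells, a difference of -0.07 (95% interval -0.33 to 0.19, adjusted p = 0.730). Its groups overlapped. ACAN, which encodes the cartilage proteoglycan aggrecan, differed by -0.11 (adjusted p = 0.623), and BCAN, which encodes brevican of the brain, by 0.01 (adjusted p = 0.966). NCAN, HAPLN2 and HAPLN4 were under the filter level, with differences of 0.07, 0.03 and -0.07. So 0 of 2 tested genes of that list were called by limma, and 0 had an unadjusted p under 0.05.

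Among the hyaluronan synthases, HAS2 rose. HAS2 is the synthase needed for heart development and the one most tied to wound and tumour matrix. Its brightest probe set (206432_at) read 5.50 and 5.81 in GFP and 8.52 and 8.68 in GFP-RhoGDI2 cells, a difference of 2.94 (SE 0.098, 95% interval 2.70 to 3.19, adjusted p = 0.000194) or 7.69-fold. Every value lay over the filter level, and the groups were 2.71 apart at their nearest arrays. The other set (230372_at) read 5.78 and 5.49 against 8.25 and 8.47, a difference of 2.72 (adjusted p = 0.000778) or 6.60-fold. Within preparations the difference was 3.02 (A) and 2.86 (B) at the brightest set and 2.46 and 2.98 at the other.

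HAS3, a synthase that makes shorter chains, was called higher only narrowly. The set 223541_at read 4.88 and 4.21 in GFP and 5.27 and 5.01 in GFP-RhoGDI2 cells, a difference of 0.60 (SE 0.125, 95% interval 0.29 to 0.91, adjusted p = 0.0483). The GFP array B stood 0.67 under GFP array A, and its group mean of 4.55 was under the filter level. The call was lost without the block (adjusted p = 0.177) and with no filter (0.0738). Without the GFP B array the difference was 0.26 (adjusted p = 0.447), and it was not called without GFP-RhoGDI2 A (0.451) or GFP-RhoGDI2 B (0.274) either. Without the GFP A array it was 0.93 and was called (adjusted p = 0.0251). The other set, 1552980_at, read 3.77 and 4.03 against 3.95 and 4.01, overlapping and under the filter level.

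The genes that supply the synthases with UDP-sugars were not called: 0 of 7 tested were higher and 0 lower by limma, 2 had an unadjusted p under 0.05, and the median was 0.07, beside a median of -0.01 over all genes tested. UGDH, which makes UDP-glucuronic acid, read 8.07 and 8.36 in GFP and 7.93 and 7.90 in GFP-RhoGDI2 cells, a difference of -0.30 (adjusted p = 0.164). GFPT1, the entry enzyme of the hexosamine pathway, differed by 0.07 (adjusted p = 0.683) and UAP1, which makes UDP-N-acetylglucosamine, by -0.11 (adjusted p = 0.506). NAGK, which salvages N-acetylglucosamine, differed by 0.32 (adjusted p = 0.120).

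CD44, the main hyaluronan receptor, read slightly higher in GFP-RhoGDI2 cells and did not pass the test. Its brightest set (212063_at) read 12.39 and 12.53 in GFP and 12.71 and 12.96 in GFP-RhoGDI2 cells, a difference of 0.37 (SE 0.095, 95% interval 0.14 to 0.61, adjusted p = 0.0735). The 13 CD44 sets were divided at a mean of 9 into a brighter and a dimmer part, after their values were seen. All 7 bright sets had groups that did not overlap, with differences of 0.30 to 0.48 and adjusted p of 0.0568 to 0.114. Over all tested probe sets the share without overlap was 52.1%. The other 6 sets, with means from 3.31 to 8.73, differed by -0.08 to 0.28. Among these, 217523_at (mean 8.73) differed by 0.03 and 229221_at (mean 7.62) by 0.19, both above the array's upper quartile level of 7.04. Several sets carry identifiers of the shared-transcript classes and can read the same transcripts, so the 7 are not separate measurements.

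The CD44 call depended on how the spread was modelled. With an intensity trend in the variance, or with the filter at the upper quartile, limma called 7 CD44 sets, the brightest with adjusted p = 6.93e-06 and 0.0148. Those settings called far more of all probe sets, 5721 of 27307 and 3435 of 13654, against 2085 of 27307 in the reported fit. With the mean over its 13 sets the difference was 0.24 and called (limma adjusted p = 0.0432), where 2430 of 9888 genes were called. In the other fits over all probe sets, those without the block or without any 1 array among them, 0 CD44 sets were called. Of the CD44 partners, sheddases and splicing factors, 0 of 8 tested were called by limma and 2 had an unadjusted p under 0.05, with a median of 0.01. MSN, encoding moesin, which ties CD44 to actin, differed by 0.35 (adjusted p = 0.104), and the sheddase gene ADAM17 by 0.42 (adjusted p = 0.0544). ESRP1, an epithelial splicing factor that promotes the variant exons of CD44, was under the filter level, at 3.45 and 3.41 in GFP and 3.31 and 3.58 in GFP-RhoGDI2 cells.

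**Figure D3:**
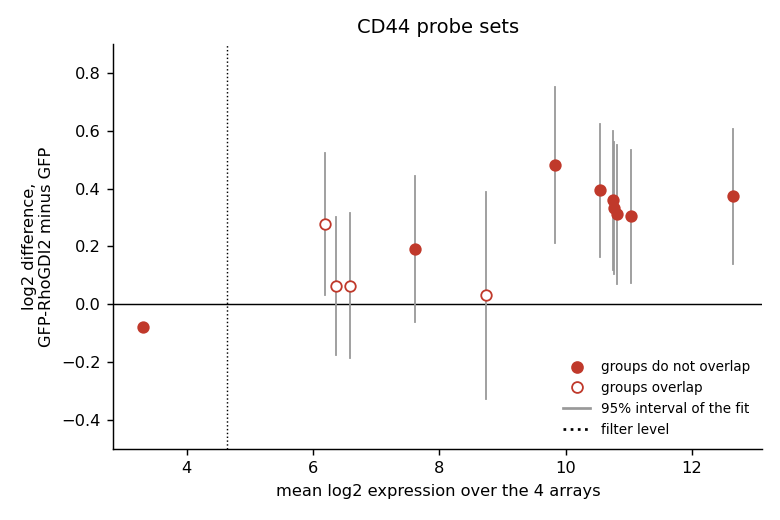
Log2 difference (vertical axis) of each CD44 probe set against its mean log2 level over the 4 arrays (horizontal axis). Filled points are sets whose groups do not overlap, vertical lines are 95% intervals of the fit, and the dotted line is the filter level of 4.64. The 7 sets with means over 9 lie at 0.30 to 0.48, and the set at 3.31 was not tested.

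HMMR, which encodes a hyaluronan-binding protein that also works at the mitotic spindle, was among the bright members. The set 207165_at read 12.15 and 12.32 in GFP and 11.89 and 12.14 in GFP-RhoGDI2 cells, a difference of -0.22 (95% interval -0.45 to 0.01, adjusted p = 0.204). The groups were only 0.01 apart. The set 209709_s_at read 10.84 and 11.04 against 10.66 and 10.86, with overlap and a difference of -0.18 (adjusted p = 0.271). In both groups preparation B read higher than A. HMMR was called lower with an intensity trend (limma adjusted p = 0.0033), where 5721 of all 27307 probe sets were called. Of 12 mitotic genes set beside it, 0 were called higher and 1, the kinetochore motor gene CENPE, lower, beside 4.83% and 3.35% of all genes tested. The median of the 12 was 0.03, and 6 of them read higher in B than in A in both groups. CENPE differed by -0.48 (adjusted p = 0.0495), a call lost without the block (0.235); its difference was -0.20 without GFP-RhoGDI2 A, -0.31 without GFP B and -0.77 without GFP-RhoGDI2 B, none called.

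The genes that cut hyaluronan showed no call. HYAL2, a hyaluronidase anchored at the cell surface, read 7.49 and 7.58 in GFP and 7.68 and 7.34 in GFP-RhoGDI2 cells, a difference of -0.02 (95% interval -0.34 to 0.30, adjusted p = 0.946). Its difference was 0.20 in preparation A and -0.23 in preparation B, and the groups overlapped. CEMIP, which encodes a hyaluronan-degrading protein, was under the filter level at both of its sets. The set 1554685_a_at read 3.97 and 3.93 in GFP and 3.95 and 4.17 in GFP-RhoGDI2 cells, and 212942_s_at read 3.09 on both GFP arrays against 3.15 and 3.02. The paralogue CEMIP2 was tested and differed by -0.16 (adjusted p = 0.411). Of the depolymerisation list, 0 of 3 tested genes were called by limma and 0 had an unadjusted p under 0.05; HYAL3, HYAL4 and SPAM1 were under the filter level, at differences of 0.27, 0.29 and 0.21.

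**Figure D4:**
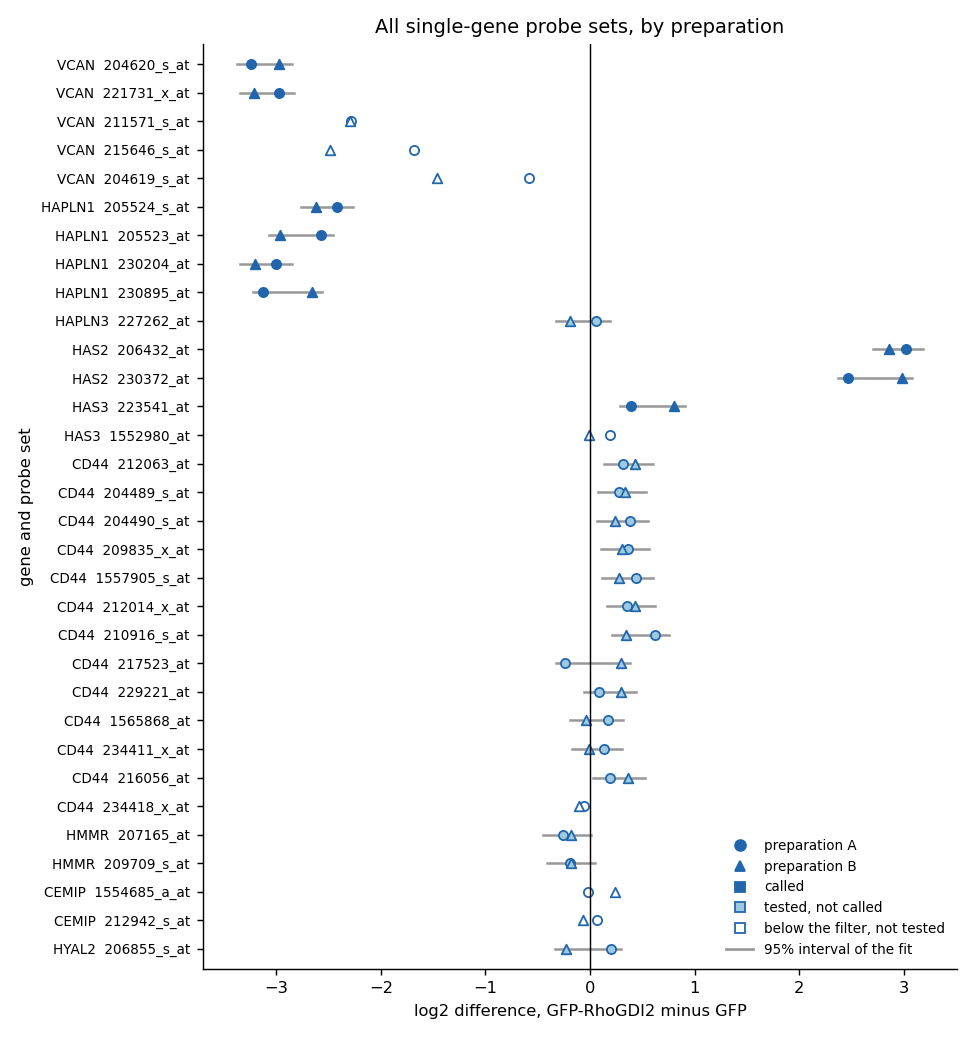
Log2 difference, GFP-RhoGDI2 minus GFP (horizontal axis), of all 32 probe sets, within preparation A (circles) and B (triangles), with the 95% interval of the fit as a grey line where tested. Filled dark symbols are called, light ones tested and not called, open ones under the filter level. All VCAN and HAPLN1 sets lie left of 0 in both preparations, both HAS2 sets lie between 2.46 and 3.02, and the rest lie within 1 of 0.

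Chondroitin sulfate chains are what versican carries, and genes that build them moved both ways. Of 19 tested, 2 were called higher and 1 lower, beside 4.83% and 3.35% of all genes, with a median of 0.11. By limma 8 of the 19 had an unadjusted p under 0.05. CHSY3, a chondroitin polymerase gene, read 5.19 and 5.23 in GFP and 4.19 and 4.14 in GFP-RhoGDI2 cells, and fell by 1.04 (adjusted p = 0.00462) to a level under the filter level. Its paralogue CHSY1 read 9.18 and 9.20 against 9.86 and 9.81 and rose by 0.64 (adjusted p = 0.0188), a call lost without any 1 array (0.0522 to 0.0991). The sulfotransferase gene UST rose by 0.64 (limma adjusted p = 0.0336). The UST call was lost in 4 of 11 alternatives, among them the fit without the block (0.109), and its difference was 0.37 without GFP-RhoGDI2 B. XYLT1, which attaches the first sugar of the chain to the core protein, differed by -0.42 (adjusted p = 0.0537).

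Of the proteases known to cut versican, the 2 tested genes, ADAMTS1 and ADAMTS4, differed by 0.08 and 0.02; neither was called or had an unadjusted p under 0.05. ADAMTS5, named after its values were seen, had a mean just under the filter level and was not tested there. It read 3.46 and 3.48 in GFP cells, under the filter level, and 5.34 and 5.91 in GFP-RhoGDI2 cells, a difference of 2.16. In the fit with no filter it was called higher (adjusted p = 0.000742). ADAMTS9, ADAMTS15 and ADAMTS20 were under the filter level in both groups, with differences of 0.02, 0.06 and 0.04. Of 16 further hyaluronan-binding proteins, 12 were under the filter level, among them LYVE1, STAB2, TNFAIP6 and PTX3, and 0 of the 4 tested were called by limma or had an unadjusted p under 0.05.

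**Figure D5:**
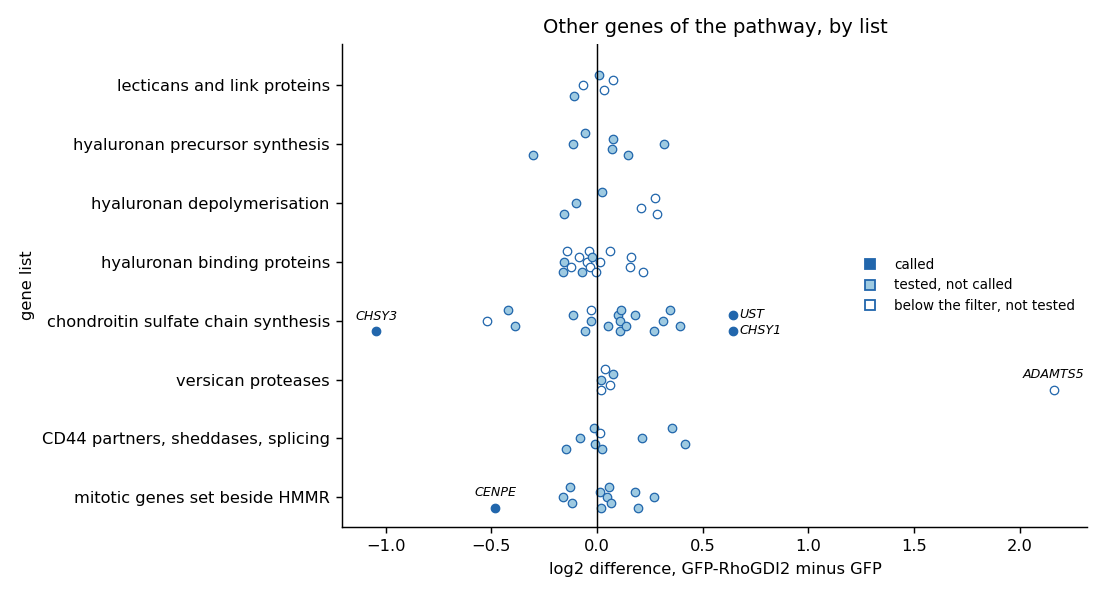
Log2 difference, GFP-RhoGDI2 minus GFP (horizontal axis), of the other pathway genes, 1 point per gene at its brightest probe set, in 8 lists (vertical axis; points are spread vertically for legibility). Filled dark points are called, light ones tested and not called, open ones under the filter level; CHSY3, CHSY1, UST and CENPE were called, and ADAMTS5 at 2.16 was not tested.

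The genes with the profile most like that of VCAN over the 4 arrays, by Euclidean distance after each gene's own mean was subtracted, were the receptor phosphatase gene PTPRD (0.26), HAPLN1 (0.69) and the protocadherin gene PCDH19 (1.10). For HAPLN1 they were PTPRD (0.47), VCAN (0.69) and PCDH19 (0.69). For HAS2 they were EPS8, an actin-regulatory adaptor gene (0.26), the myosin light chain kinase gene MYLK (0.30) and the tensin gene TNS3 (0.33). With 4 arrays in 2 groups, this distance mostly measures how alike the group differences are.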

How the data were processed

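The authors deposited log2 expression values for 54675 probe sets of the Affymetrix HG-U133 Plus 2.0 array, made with RMA (submitters' processing notes, which give neither version nor the arrays processed jointly). Array medians were 4.62 to 4.65, and nothing was renormalized. Without 62 control sets, sets with a mean at or above the median were tested (27307 sets, 12123 genes; a gene by its brightest set) with limma 3.58.1 in R 4.3.3, preparation as a block, tested on simulated data. The pairing comes from the labels; across tested sets, the change from A to B in GFP cells correlated with that in GFP-RhoGDI2 cells at 0.264. The fit had 1 residual degree of freedom, with 4.71 added by moderation, so small SEs rest mainly on the pooled variance. An exact permutation of 2 against 2 arrays cannot give p under 0.333. The number of arrays limits the precision. For the GFP-RhoGDI2 samples, 1 label field tells of the control transfection instead; groups follow the titles. Members and lists were chosen with earlier results of these data known. Named were all members, called list genes, the 3 nearest profiles of VCAN, HAPLN1 and HAS2, the neighbours of VCAN and HAPLN1, and ARHGDIB; other list genes were named after their values were seen. Alternatives were no block, each array left out (without the block), other filters, trend or robust moderation, renormalization, a floor, probe set means and no _s_at or _x_at sets. Promoters are from RefSeq, GRCh38.p14, which held 9 of the 10 genes.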

Additional observations from a re-analysis of the deposited data

How the results depend on the processing

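VCAN, HAPLN1 and HAS2 kept their direction and their call in every alternative that tested them: -3.27 to -2.28 for VCAN (10 alternatives; it was under the filter at the upper quartile and as a probe set mean, and has no probe set outside the _s_at and _x_at classes), -2.82 to -2.43 for HAPLN1 and 2.79 to 3.10 for HAS2 (13 each). With no replicate block, which ignores the pairing, the differences were the same and 3 of the 4 genes were called; HAS3 was the call lost. The number of genes called higher was 1 in place of 2 with no replicate block, no filter, robust moderation, renormalization or a floor, and 1 to 2 with an array left out; HAS3 accounts for each loss. The number called lower was 1 in place of 2 above the upper quartile, with probe set means and without _s_at and _x_at sets, where VCAN was not tested. Over probe sets, 18 were called with an intensity trend in place of 9, with 10 in place of 3 higher. Of all 27307 probe sets tested, that setting called 5721 in place of 2085, with 2935 in place of 1264 higher. Above the upper quartile 8 were higher and 3 in place of 6 lower, where 1713 and 1722 of all 13654 tested were called higher and lower. With an array left out, HAPLN3 ran from -0.18 to 0.0416 and HYAL2 from -0.19 to 0.15, none called; the sign turned for HAPLN3 without GFP B and for HYAL2 without GFP B (0.03) and without GFP-RhoGDI2 B (0.15). The smallest member difference called in the reported fit was 0.60, and some alternatives called smaller ones for CD44 and HMMR. Levels under 4.64 have no shown distance from background.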

Other observations

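Genes next to 2 other members were also read. Of all genes tested on these arrays, 8.17% were called. Of the 5 protein-coding genes on each side of HAS2, 8 were tested, and 3 had a limma unadjusted p under 0.05. Only the syntrophin gene SNTB1, directly before HAS2 and named after its values were seen, was called. Without a call, MRPL13 differed by 0.40 (limma adjusted p = 0.0719) and DERL1 by 0.38 (0.0662), both also named after their values were seen. The lowest difference was -0.26, at MTBP, and the median was 0.07. SNTB1 went from 6.19 to 7.39, a rise of 1.20 (limma adjusted p = 0.00287) that was 1.21 in preparation A and 1.19 in B. The SNTB1 call was lost in 4 of 11 alternatives, among them the fit without the block (adjusted p = 0.0598). Its difference ran from 0.85 to 1.54 over the alternatives. Of the 10 genes around CD44, 7 were tested, and 2 had a limma unadjusted p under 0.05. The catalase gene CAT was the 1 called, with a rise of 0.72 (limma adjusted p = 0.0144). The CAT call was lost in 2 of 13 alternatives, each with an array left out, and its difference ran from 0.39 to 0.78. PDHX, directly before CD44, differed by -0.01. The glutamate transporter gene SLC1A2, directly after CD44, differed by 0.28 (adjusted p = 0.158). No gene around HAPLN3 was called, with differences from -0.29 to 0.33 in the 9 with a probe set; limma called 0 of 8 tested, and 1 had an unadjusted p under 0.05.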
